A study of Mus musculus with 8 samples.

Results

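The pancreatic polypeptide family of peptide hormones was followed here through its 3 mouse genes, Ppy (pancreatic polypeptide), Pyy (peptide YY) and Npy (neuropeptide Y). They were chosen by name as family members, and all 3 were found among the 19945 genes counted in single islet cells. The related peptides are cut from longer precursors, are amidated at their end and act on a shared set of G protein-coupled receptors. Pancreatic polypeptide is the hormone of the islet γ-cells (PP cells), which lie mostly in the part of the pancreas that arises from the ventral bud. Peptide YY is best known from gut L-cells and is also made in the islet, and neuropeptide Y is a transmitter of sympathetic nerves that islet cells can make too.

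The study asked how islet cells of wild-type C57BL/6 mice, aged 6 to 12 weeks at the start, differ after focal adhesion kinase was inhibited. Mice received vehicle or FAKi (PF-562271, an inhibitor of that kinase) at 50 mg/kg by oral gavage, 2 times daily over 3 weeks, and 10 days passed between the final dose and islet isolation. Islets of 5 mice, about 1200 in number, were handpicked and pooled into 1 library per treatment, and 8 deposited samples stand for 4 sequencing lanes of each library. No value therefore has biological replicates and no difference between the treatments was tested: every interval given is a 95% interval for counting error, and what separates the libraries beyond counting cannot be told apart from the treatment.

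The vehicle library held 3776 cells with 59514118 unique molecular identifiers (UMIs, each a counted RNA molecule) and the FAKi library 3183 cells with 57836783. The median cell had 10101.5 UMIs with vehicle and 13688 with FAKi. Cells fell into 17 clusters under 12 class labels given by the authors, and 4 cell barcodes occurred in both libraries. Where a pair of values stands without a label below, the first is from the vehicle library and the second from the FAKi library. Ppy took 917939 UMIs with vehicle and 926165 with FAKi, which was 1.54% and 1.60% of all UMIs. Pyy took 0.892% and 1.06%, and Npy, with 2764 and 3566 UMIs, took under 0.01% of either library.

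Ppy and Pyy are neighbours on chromosome 11 of GRCm38, both on the minus strand, at chr11:102099930-102101319 and chr11:102106676-102107832. They are 5356 bases apart, and this gap was not searched for other genes. Npy lies at chr6:49822710-49829507 on the plus strand. Each gene has up to 4 exons. Because such closely related neighbours could share reads, the stretch that encodes the mature peptide is shown for each gene from its reference transcript, read in the direction of the gene: 36 codons in lower case, then in capitals the codons of the site where the precursor is cut and amidated.
Ppy: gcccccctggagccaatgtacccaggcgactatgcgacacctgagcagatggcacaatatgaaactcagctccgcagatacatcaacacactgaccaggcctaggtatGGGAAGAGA
Pyy: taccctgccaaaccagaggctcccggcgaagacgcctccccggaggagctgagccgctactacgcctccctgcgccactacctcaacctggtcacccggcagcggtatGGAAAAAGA
Npy: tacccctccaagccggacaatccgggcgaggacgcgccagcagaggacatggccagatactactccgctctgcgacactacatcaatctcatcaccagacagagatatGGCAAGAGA
These stretches lie across exons 2 and 3, at chr11:102100271-102100624 for Ppy, chr11:102107044-102107268 for Pyy and chr6:49823682-49827501 for Npy, intron included. Of the 108 bases before the cleavage site, Pyy and Npy shared 76 (70.4%), Ppy and Npy 61 (56.5%) and Ppy and Pyy 58 (53.7%). No run of 25 bases was common to any pair of the full transcripts, and the longest shared run was 10 bases. The chromosomal neighbours were thus the pair least alike in this stretch.

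Since transcripts of Ppy and Pyy were found together in many cells, the 80 bases before the start of each gene are also shown (RefSeq, GRCm38.p6), with the letters TATAA in capitals. They run from chr11:102101320-102101399 for Ppy, chr11:102107833-102107912 for Pyy and chr6:49822630-49822709 for Npy.
Ppy: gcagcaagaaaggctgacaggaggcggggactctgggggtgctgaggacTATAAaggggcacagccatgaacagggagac
Pyy: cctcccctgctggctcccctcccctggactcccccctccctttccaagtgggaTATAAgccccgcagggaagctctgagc
Npy: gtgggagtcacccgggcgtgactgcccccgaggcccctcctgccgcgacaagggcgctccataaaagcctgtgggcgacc
TATAA, the core of the TATA box, stood 31 bases before the start of Ppy and 27 before that of Pyy, and was not found for Npy. Over the 250 bases before the start, on both strands, it occurred in 22.8% of 32851 mouse promoters. CANNTG, the letters of an E-box, occurred in 66.2% of them and 1 time before Pyy, and TAAT, the core of homeobox motifs, in 54.9% and before none of the 3 genes. The matches did not overlap. A match in letters is a description of the sequence and was not tested for binding.

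Ppy was highest in cells labelled Delta_cells and next in Alpha_cells. UMIs summed over a class and scaled to 1000000 UMIs in all (CPM) gave 144939 CPM of Ppy in Delta_cells with vehicle and 141153 with FAKi. Alpha_cells had 45503 and 16442 CPM. The next classes were far below, with 1653 and 1067 CPM in Beta_cells and 1442 and 2786 in Acinar_cells_1. Ductal_cells had 1238 and 470 CPM and Endothelial_cells 1166 and 326, and single cells carried much of these: 1 cell held 91.4% of the ductal Ppy UMIs of the vehicle library. In the other 6 classes (Pericytes, 2_Acinar_cells, T_cells, B_cells, Macrophages and Fibroblasts) Ppy lay between 65.2 and 399 CPM, and neighbours in this order, such as B_cells (129 CPM, 103 to 161) and Macrophages (127 CPM, 107 to 149) of the vehicle library, overlapped in their counting intervals. The leading pair of classes kept its order in both libraries, while Acinar_cells_1 stood below Beta_cells with vehicle and above them with FAKi.

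Pyy followed the same order at the top. It measured 71602 CPM in Delta_cells and 40019 in Alpha_cells of the vehicle library, and 86459 and 17876 CPM in the FAKi library. Below these in the vehicle library were Ductal_cells (1174 CPM, of which 1 cell held 78.2%), Acinar_cells_1 (1063 CPM, 958 to 1176) and Beta_cells (1003 CPM), which the interval of Acinar_cells_1 did not separate. In the FAKi library Acinar_cells_1 had 1375 CPM, Beta_cells 630 and Ductal_cells 314. Pyy was in nearly every cell under these labels: 98.5% and 97.5% of Alpha_cells and 96.0% and 97.8% of Delta_cells had at least 1 Pyy UMI, at median depths of 12670.5 to 13782 UMIs, against 26.7% and 39.4% of Endothelial_cells at median depths of 5752 and 4836.

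Npy had another distribution. It was highest in Beta_cells of the vehicle library, at 79.2 CPM, and measured 87.4 CPM in those of the FAKi library, where Macrophages reached 132 CPM on 67 UMIs of which 1 cell held 55.2%. Alpha_cells (1.58 and 1.498 CPM) and Delta_cells (2.79 and 4.87 CPM) had little of it. Beta_cells held 95.3% of all Npy UMIs with vehicle and 94.1% with FAKi. Of the cells outside Beta_cells with at least 5 Npy UMIs, 9 in each library, 6 and 7 had Ins2, an insulin gene, at 10% of their UMIs or more.

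**Figure D1:**
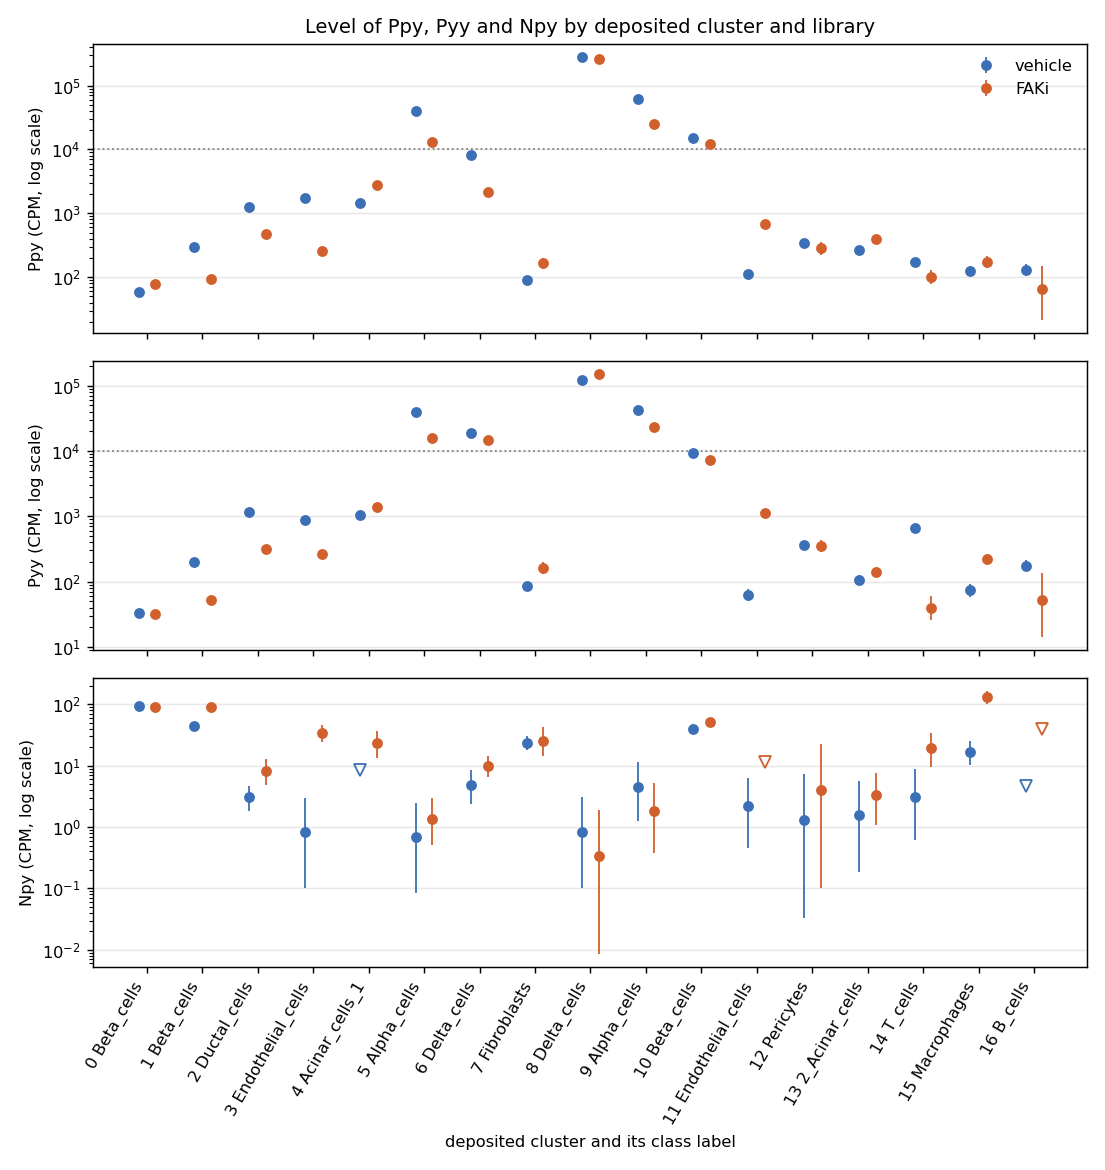
CPM of Ppy (top), Pyy (middle) and Npy (bottom) on a log scale in each of the 17 deposited clusters, vehicle in blue and FAKi in orange; bars are exact Poisson 95% intervals, open triangles mark the limit of 3 counts where no UMI was found, and the dotted line marks 10000 CPM. Ppy and Pyy peak together in cluster 8 and are next highest in clusters 9 and 5, with clusters 6 and 10 below those, whereas Npy peaks in the Beta_cells clusters 0, 1 and 10 and, in the FAKi library, in Macrophages.

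The clusters inside these classes were unequal. Among Delta_cells, cluster 8 held 278292 CPM of Ppy with vehicle and 263888 with FAKi, against 8245 and 2143 CPM in cluster 6. Pyy measured 123189 and 150068 CPM in cluster 8, and cluster 6 had 18721 and 14415. In cluster 8 a median cell spent 21.8% of its UMIs on Ppy with vehicle and 23.7% with FAKi, and the highest cell 49.5% and 46.6%. In cluster 6 the median was 0.0424% and 0.0250%. In no other cluster did the median cell reach 1% of Ppy.

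The label of cluster 8 went against its markers. Sst, the hormone of δ-cells, measured 213487 and 219821 CPM in cluster 6 but 6909 and 7524 in cluster 8, whose median cell spent 0.00334% and 0.0104% of its UMIs on Sst. Hhex, a transcription factor that maintains δ-cells, measured 10.6 and 7.48 CPM in cluster 8 against 399 and 475 in cluster 6. Of the genes listed as marking cells that make Ppy, Tspan8 (a tetraspanin) measured 641 and 677 CPM in cluster 8 against 182 and 124 in cluster 6. Etv1 and Meis2, both transcription factors, were present in cluster 8 (311 and 246 CPM, 147 and 156 CPM) but were not higher there than in Alpha_cells cluster 5. Aqp3 had no UMI in cluster 8, which allows up to 3 counts. Cluster 8 is therefore named below by its number and leading genes, Ppy and Pyy.

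Cluster 8 held cells with and without Ppy at a high level. A cell was called rich in a hormone where that gene took at least 1% of its UMIs, a line drawn in a continuous range: 105 cells with vehicle and 100 with FAKi had Ppy between 0.5% and 2%. In cluster 8, 87 of 140 cells (62.1%) were Ppy-rich with vehicle and 105 of 163 (64.4%) with FAKi, with a median of 34.9% and 30.4% of their UMIs on Ppy and a median depth of 25564 and 24499 UMIs. The other 53 and 58 cells had a median depth of only 3096 and 2515 UMIs with 468 and 648 CPM of Ppy, and 1 and 6 of them were called doublets. Summed over those other cells, Gcg (the glucagon gene of α-cells) reached 249088 and 347198 CPM, but 10 cells held 90.2% and 80.2% of the Gcg UMIs of the cluster, and the median such cell spent 0.302% and 4.54% of its UMIs on Gcg. Sst summed to 26558 and 38357 CPM over the same cells, with a median of 0.0316% and 0.0585%. Cluster 8 thus covered cells with unlike Ppy levels, and some of those under 1% of Ppy held much Gcg or Sst. The median such cell was Gcg-rich with FAKi and not with vehicle.

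**Figure D2:**
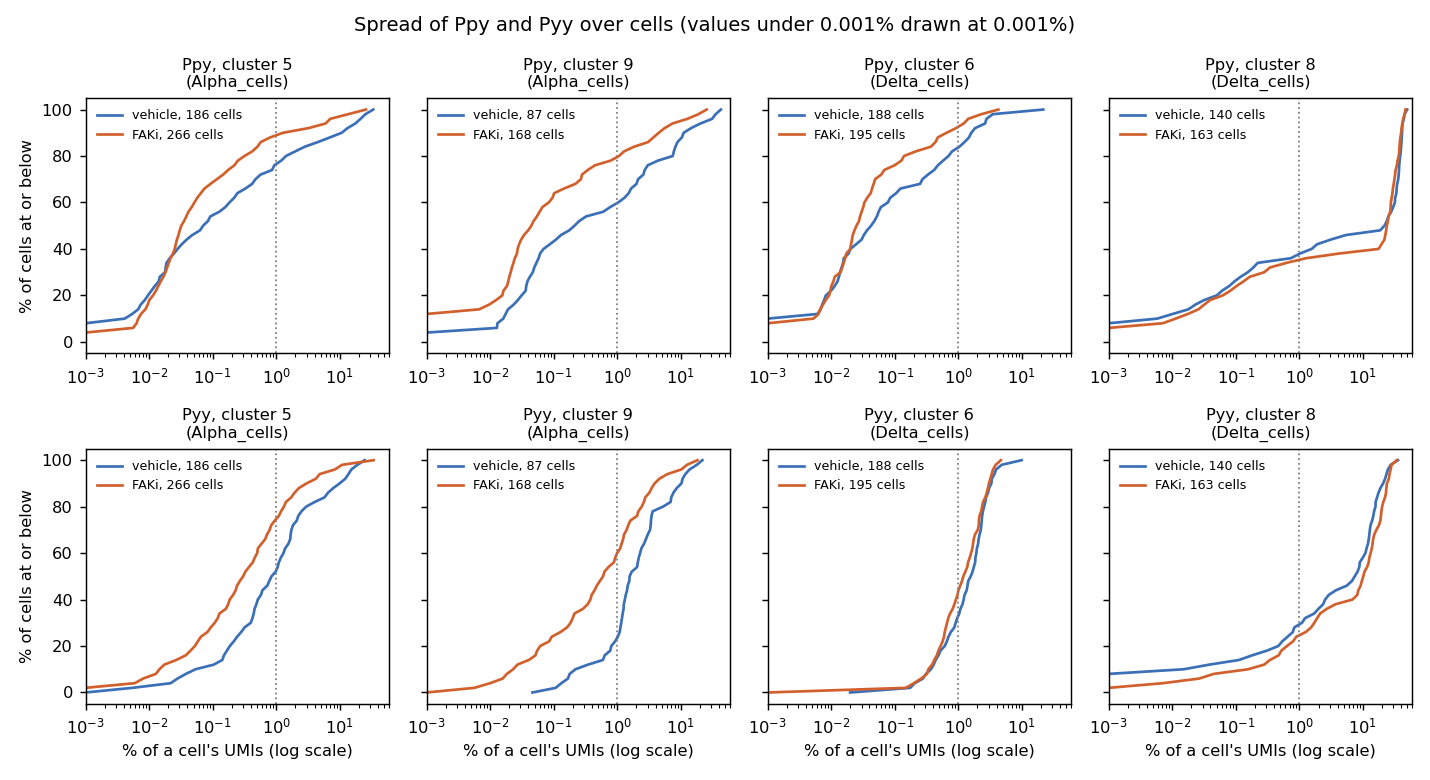
Cumulative percent of cells (y axis) at or below a given percent of UMIs on Ppy (top row) or Pyy (bottom row), on a log x axis, for clusters 5, 9, 6 and 8, vehicle in blue and FAKi in orange; the dotted line is 1%. The curves for clusters 5 and 9 lie further left in the FAKi library over most of their range for both genes, and the Ppy curves of cluster 8 stay flat between about 1% and the main group of cells near the right edge.

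Over the whole libraries, 224 cells (5.93%) with vehicle and 222 (6.97%) with FAKi were Ppy-rich. Delta_cells supplied 118 and 120 of them and Alpha_cells 78 and 65, while Beta_cells supplied 15 and 20. Pyy-rich cells were more, 405 and 393. Nearly all Ppy-rich cells were Pyy-rich too: 204 of 224 (91.1%) with vehicle and 198 of 222 (89.2%) with FAKi. In the other direction, 50.4% of Pyy-rich cells of either library were Ppy-rich.

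The cells with Pyy and little Ppy sat mainly in cluster 6 and among the α-cells. In cluster 6, 126 of 188 cells (67.0%) with vehicle and 109 of 195 (55.9%) with FAKi were Pyy-rich, and 97 and 98 of these were not Ppy-rich. All of these Pyy-rich cells were also Sst-rich. In cluster 5, whose cells were led by Gcg, 49 and 38 cells were rich in Pyy without Ppy. Among cells rich in at least 1 of both genes, the percents of UMIs on Ppy and Pyy had a Spearman correlation of 0.645 over 425 cells and 0.649 over 417 cells, a description of cells that share a library and a total. In cells of cluster 8 rich in both, the median cell had 2.48 Ppy UMIs for each Pyy UMI with vehicle and 2.02 with FAKi, with the quartiles 1.62 to 3.39 and 1.18 to 2.92, as UMIs and not corrected for any difference in capture between the transcripts.

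**Figure D3:**
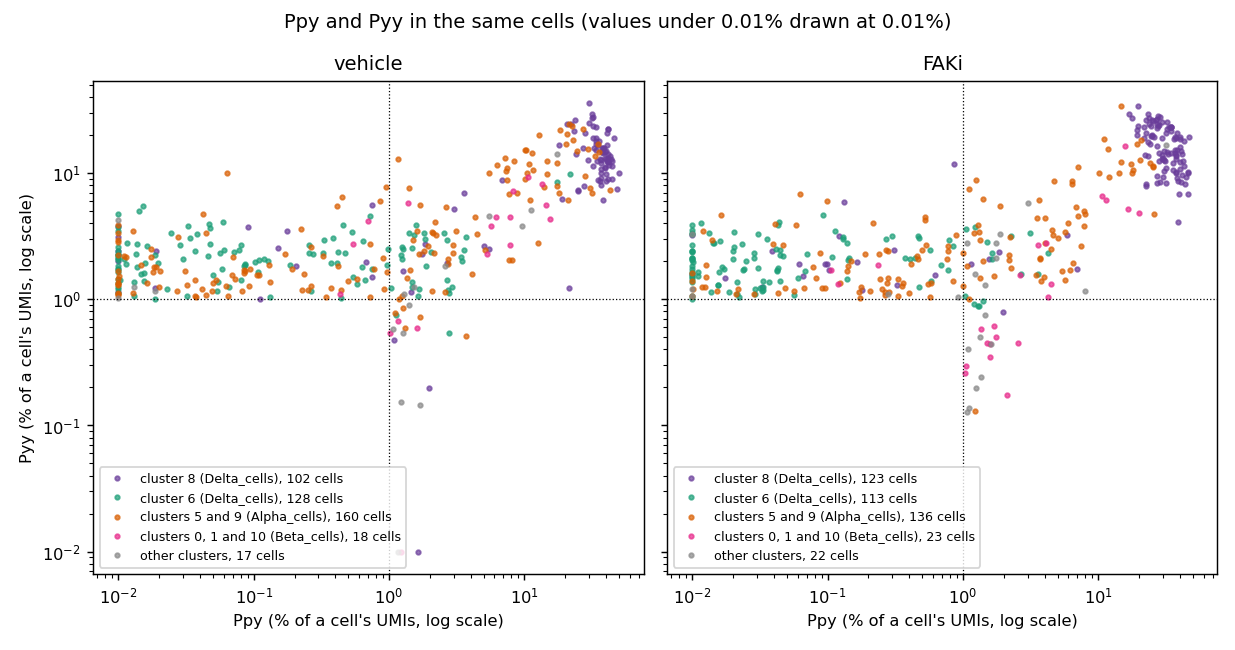
Percent of each cell's UMIs on Ppy (x axis) and Pyy (y axis), both on log scales, for cells with at least 1% of either gene in the vehicle (left) and FAKi (right) library, coloured by cluster; dotted lines mark 1%. Cells of cluster 8 gather at the upper right with both genes high. Cells of cluster 6 and of clusters 5 and 9, labelled Alpha_cells, form a band with Pyy above 1% over a wide range of Ppy.

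Joint detection with the main islet hormones was taken first as at least 1% of UMIs of both genes. Of the Ppy-rich cells, 51 (22.8%) with vehicle and 30 (13.5%) with FAKi were also Sst-rich. For Gcg these were 66 (29.5%) and 82 (36.9%), and for Ins2 37 (16.5%) and 45 (20.3%). Among endothelial and immune cells, taken as types without these hormones, 0.105% of vehicle and 0.277% of FAKi cells were Sst-rich and 0.630% and 2.22% Gcg-rich, but 12.7% and 35.2% were Ins2-rich, so the shares for Ins2 are not told from background. The line also mattered. At 5% of UMIs the shares were 2.90% and 1.42% for Sst, 21.0% and 19.1% for Gcg and 10.1% and 2.84% for Ins2, and the order of the libraries was turned for Gcg and Ins2. No partner hormone reached 1% in 88 and 102 Ppy-rich cells, 1 partner did in 118 and 85, and 2 did in 18 and 33. All 3 partners passed 1% in 0 and 2 cells. The cells with 2 partners had a median depth of 1690 and 1517 UMIs, against 25977.5 and 24558 for those with none. Not all of them were shallow: 4 and 9 Alpha_cells with 2 partners had a median of 10490.5 and 10160 UMIs, and 5 vehicle Beta_cells one of 30678.

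Which partner it was followed the cluster, and the clusters were themselves formed from gene expression, so this is a description. In cluster 8, 69 of 87 and 94 of 105 Ppy-rich cells had none of the 3 hormones at 1%, and the median cell had 0.0129% and 0.0258% of its UMIs on Gcg. In cluster 6 all 31 and 15 Ppy-rich cells were Sst-rich, with a median of 19.1% and 18.4% of UMIs on Sst, and none was Gcg- or Ins2-rich. In cluster 5, 35 of 43 and 28 of 30 Ppy-rich cells were Gcg-rich and none was Sst-rich. Cluster 9 was mixed: although labelled Alpha_cells it had 58407 and 45730 CPM of Sst and 134 and 107.6 CPM of Hhex, and of its 35 Ppy-rich cells in each library 13 and 8 were Sst-rich and 15 and 26 Gcg-rich. In cluster 10 of Beta_cells, 14 of 14 and 12 of 13 Ppy-rich cells were Ins2-rich, of which scrublet, a doublet caller, marked 1 and 4.

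Seen from the partner, Ppy was rarer than Pyy in cells rich in Sst or Gcg. Of Sst-rich cells, 18.5% with vehicle and 9.87% with FAKi were Ppy-rich, and 64.0% and 51.6% were Pyy-rich. Of Gcg-rich cells, 22.0% and 14.9% were Ppy-rich and 41.7% and 23.2% Pyy-rich. Of Ins2-rich cells, 2.47% and 2.26% were Ppy-rich and 2.80% and 3.37% Pyy-rich, with intervals that overlap between the genes (1.74 to 3.39 against 2.03 to 3.77 with vehicle and 1.65 to 3.01 against 2.62 to 4.25 with FAKi). Of these 1499 and 1991 Ins2-rich cells only 1067 and 1332 were Beta_cells, and the part of free RNA in these last shares was not tested.

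**Figure D4:**
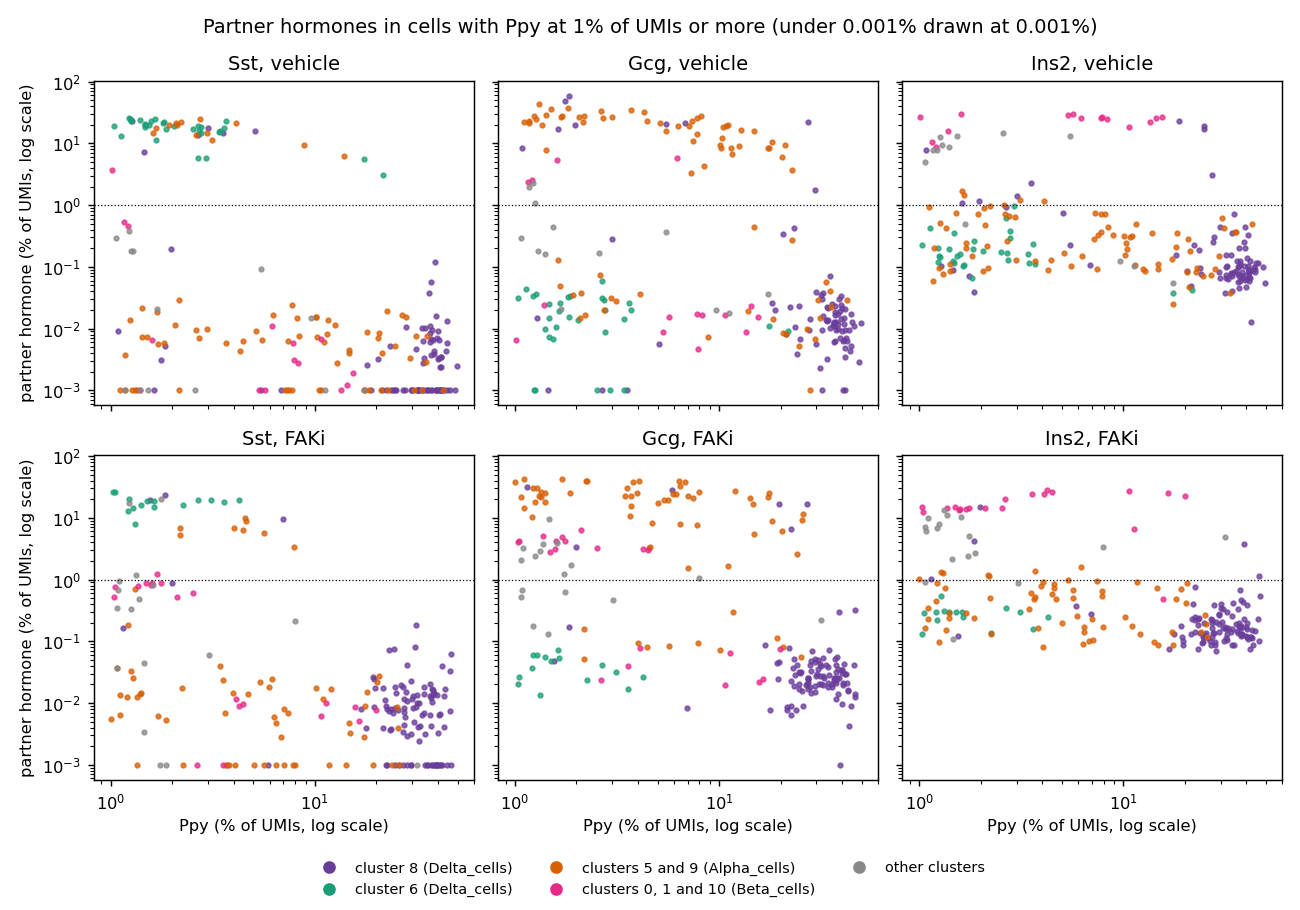
Percent of UMIs on Sst, Gcg and Ins2 (columns, y axis) against the percent on Ppy (x axis), both on log scales, in the 224 vehicle (top) and 222 FAKi (bottom) cells with Ppy at 1% or more; the grey line marks 1%. Cluster 6 lies above 1% for Sst, nearly all cells of cluster 10 for Ins2 and most cells of cluster 5 for Gcg. Cells of cluster 9, labelled Alpha_cells, lie partly above it for Gcg and partly for Sst, while most cells of cluster 8 lie under the line for all 3 hormones.

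Detection by a single UMI told much less. In endothelial and immune cells, 48.3% of 953 vehicle cells and 71.5% of 361 FAKi cells had a Ppy UMI, at median depths of 5186 and 4883, and 29.2% and 42.1% had a Pyy UMI. Endothelial and immune cells with no hormone at 1% still had 135 and 192 CPM of Ppy, against 57.5 and 79.0 CPM in β-cell cluster 0. These cells differed in depth, with a median of 5312 and 5692 UMIs against 34677 and 34237, and per cell the order was the other way round: 711 Ppy UMIs in 823 cells and 292 in 229, against 1303 in 650 and 1924 in 675 cells of cluster 0. Whether the Ppy UMIs of cluster 0 came from free RNA was not tested. With cells thinned to 1000 UMIs, leaving out shallower ones (13 and 15 Delta_cells, 1 and 0 Alpha_cells, 13 and 16 Beta_cells and 13 and 16 Endothelial_cells), a Ppy UMI was found in 61.3% and 54.2% of Delta_cells, 60.7% and 46.3% of Alpha_cells, 10.6% and 9.77% of Beta_cells and 13.6% and 21.3% of Endothelial_cells. Beta_cells were far deeper than Endothelial_cells before thinning, so the order of their thinned shares is not read. Acinar_cells_1, with a median depth of only 1480 and 1140 UMIs, had a Ppy UMI in 79.5% and 85.9% of cells.

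Between the treatments, Ppy and Pyy were lower with FAKi in Alpha_cells. These are called α-cells below by their label, although cluster 9 was mixed. A gene was counted as past the line where its CPM differed at least 1.5-fold between the libraries, counting those genes that had 100 or more UMIs in that class. In Alpha_cells both Ppy and Pyy were lower past that line, as were 1.59% of the 7795 genes, while 3.17% were higher. Ppy measured 0.361 times the vehicle level (0.359 to 0.364) and Pyy 0.447 times (0.443 to 0.450), against a median log2 ratio of 0.03 over all genes of the class. Both clusters labelled Alpha_cells had the direction: Ppy was 40387 and 13262 CPM in cluster 5 and 62348 and 24883 in cluster 9, and Pyy 39220 and 15786 in cluster 5 and 42650 and 23425 in cluster 9. Cluster 9 also held Sst, and its hormones moved between the libraries, with Gcg at 147656 and 193051 CPM and Sst at 58407 and 45730. The part of this shift in its Ppy and Pyy values was not tested.

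The lower α-cell level was seen in several measures. The median α-cell had 0.0882% of its UMIs on Ppy with vehicle and 0.0354% with FAKi, and 1.18% and 0.395% on Pyy. Ppy-rich cells were 78 of 273 α-cells (28.6%, 23.3 to 34.3) and 65 of 434 (15.0%, 11.8 to 18.7). Pyy in the α-cells that were not Ppy-rich was 11139 and 6477 CPM. Set against the whole library, α-cells were 7.23% of vehicle and 13.6% of FAKi cells, and Ppy-rich α-cells 2.07% and 2.04% of all cells. The share of the library that was Ppy-rich and labelled Alpha_cells was therefore alike, while the class around it held more cells. Whether more α-cells were recovered or fewer of them made Ppy cannot be told apart here. The median depth of the class was 13126 and 13262.5 UMIs.

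In Delta_cells neither gene passed the 1.5-fold line, where 2.54% of 7961 genes were lower and 1.33% higher. Ppy was 0.974 times the vehicle level (0.971 to 0.977) and Pyy 1.21 times (1.20 to 1.21), at a median log2 ratio of -0.05 over all genes. The clusters differed. Ppy was 0.948 times the vehicle level in cluster 8 and 0.260 times in cluster 6, where 1 vehicle cell held 37.2% of the Ppy UMIs. Ppy-rich cells of cluster 6 were 31 of 188 (16.5%, 11.5 to 22.6) and 15 of 195 (7.69%, 4.37 to 12.4), which does not depend on how much that 1 cell held. Pyy was 1.22 times the vehicle level in cluster 8 and 0.770 times in cluster 6. As the class sums cells of both clusters, its ratio was set mainly by cluster 8.

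In Beta_cells, where 3.1% of 11041 genes were lower past the line and 1.21% higher, Npy was 1.10 times the vehicle level (1.05 to 1.16). Ppy was 0.646 times and Pyy 0.628 times the vehicle level, both past the line, but 10 cells held 89.6% and 90.9% of the Ppy UMIs of this class. Cluster 10 held 51574 of 55021 and 38034 of 40960 of these UMIs. It had 15096 and 12054 CPM of Ppy and 12 and 18 called doublets among 121 and 115 cells. Cluster 0 had 57.5 and 79.0 CPM, and cluster 1 had 297 and 92.3 CPM with 1 vehicle cell holding 68.1% of its Ppy UMIs. For Pyy, 10 cells held 75.7% and 84.4% of the UMIs of the class, and cluster 0 had 32.7 and 31.9 CPM. As means over cells, Ppy was 1089 and 948 CPM and Pyy 772 and 543 CPM in Beta_cells, and neither difference reached 1.5-fold. No statement on Ppy or Pyy of the typical β-cell can be made from these sums.

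Npy was carried by a minority of β-cells. At least 1 Npy UMI was found in 185 of 1076 vehicle β-cells (17.2%, 15.0 to 19.6) and 227 of 1336 FAKi β-cells (17.0%, 15.0 to 19.1). With cells thinned to 10000 UMIs, which left out 107 and 193 shallower Beta_cells, 86 and 113 Alpha_cells and 121 and 85 Delta_cells, the shares were 12.6% and 14.3%, against 1.07% and 1.56% in Alpha_cells and 1.93% and 2.56% in Delta_cells. Endothelial cells of that depth were few and had Npy in 0 of 85 (up to 4.25%) and 2 of 22. The top 5% of β-cells held 81.7% and 76.2% of the Npy UMIs, and the highest cell had 213 and 106. At least 10 Npy UMIs were found in 63 and 93 β-cells. So most β-cells had no Npy UMI at median depths of 30792.5 and 30427.5 UMIs, while a small set held most of the transcript.

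Npy was also compared within each β-cell cluster. Cluster 0 had 95.9 and 89.9 CPM (0.937 times, 0.883 to 0.995), cluster 1 had 45.2 and 92.3 CPM (2.04 times, 1.80 to 2.32) and cluster 10 had 39.8 and 51.0 CPM (1.28 times, 1.01 to 1.62). In cluster 1, 1 cell held 18.1% and 10.4% of the Npy UMIs, and Npy was in 42 of 305 cells (13.8%, 10.1 to 18.2) and 90 of 546 (16.5%, 13.5 to 19.9), shares whose intervals overlap. Single cells weighed in the other clusters too: 1 cell held 9.80% and 4.84% of the Npy UMIs of cluster 0, and 45.6% and 28.6% of those of cluster 10. Averaged over cells, so that each counts alike, Npy was 74.1 and 77.2 CPM in cluster 0, 41.2 and 117 in cluster 1 and 72.6 and 37.3 in cluster 10. Cluster 1 kept its direction by this measure, and clusters 0 and 10 turned theirs. The differences between clusters were not tested.

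**Figure D5:**
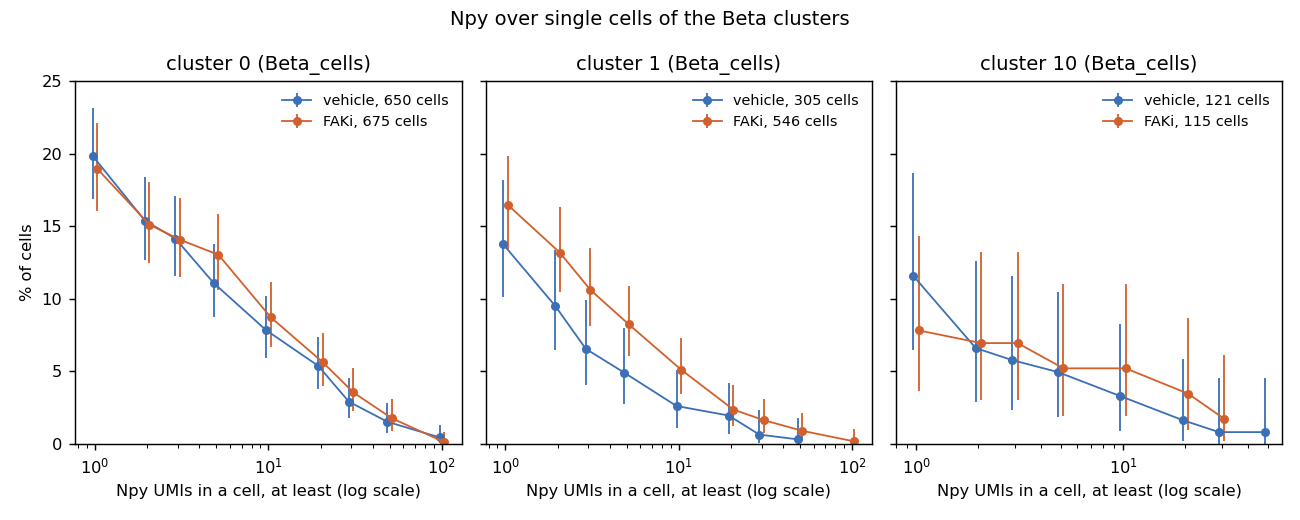
Percent of β-cells (y axis) with at least a given number of Npy UMIs (x axis, log scale) in clusters 0, 1 and 10, vehicle in blue and FAKi in orange, with exact binomial 95% intervals. The curves of the libraries run together in cluster 0 and fall gradually from 19.8% and 19.0% of cells at 1 UMI, and in cluster 1 the FAKi curve lies above the vehicle curve at 1 to 50 UMIs, with intervals that overlap at every point drawn.

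β-cells with high Npy were also set beside those without, for genes of insulin production and prohormone processing. Within cluster 0 and among cells of at least 10000 UMIs, 62 vehicle and 70 FAKi cells had Npy at 200 CPM or more, and 516 and 546 had none. Ins2 was 0.993 and 0.985 times and Ins1 1.08 and 1.07 times as high in the Npy-high cells. Pcsk1, a convertase that cuts prohormones, was 1.28 times (1.19 to 1.38) and 1.14 times (1.06 to 1.23) as high. Scg5, a chaperone of the other convertase Pcsk2, was 1.15 and 1.12 times and Cpe, which trims the cut ends, 1.07 times as high in both libraries. The other 4 listed processing genes had no such shared direction beyond counting error: Pcsk2 was 1.08 and 1.01 times, Pam 0.932 and 1.07 times, Pcsk1n 0.971 and 1.027 times and Dpp4 0.772 and 1.02 times as high. Other β-cell genes differed in direction. Lower in both libraries were Nkx6-1, a β-cell transcription factor (0.849 and 0.919 times), Mafa (0.912 and 0.953 times) and Slc2a2 (0.883 and 0.939 times). The FAKi intervals of Mafa (0.905 to 1.0025) and Slc2a2 (0.879 to 1.003) held an equal level. Iapp (amylin) was 1.07 and 1.04 times as high, while G6pc2 (0.910 and 1.16 times) and Ucn3 (1.04 and 0.957 times) turned between the libraries. Of the family, Pyy was 0.633 times (0.476 to 0.827) and 0.763 times (0.588 to 0.976) as high in the Npy-high cells, and Ppy 1.026 and 0.918 times. The Npy-high cells were deeper, with a median of 40241.5 and 38962.5 UMIs against 33300 and 33343.5, and the part of depth in these ratios was not tested.

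The genes most like each member were ranked by Pearson correlation of log2(CPM + 1) across 33 combinations of cluster and library, over 14092 genes with at least 100 UMIs. These points share libraries and cell types, so the values are descriptions. Ppy and Pyy were each other's closest gene of all, at r = 0.967. Among the genes next most like Ppy were Gc (0.870, a vitamin D carrier made by α-cells), Gm14004 (0.866) and Ctxn2 (0.865). The highest level of Gc was in cluster 8 of the FAKi library, at 327 CPM. Pyy was further most like Gc (0.915), Eef1a2 (0.906, a translation elongation factor of nerve and muscle), Gm14004 (0.884) and Kctd16 (0.883). Npy was most like Gm49542 (0.874), Ica1l (0.827), Gad1 (0.826, which makes the transmitter GABA), Mnx1 (0.825, a β-cell transcription factor) and Tmigd3 (0.824). Npy and Ins2 had r = 0.760, and Npy and Ppy r = -0.41. The family thus split into a pair that moved together over clusters and a member with β-cell genes.

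Ppy-rich cells were also set beside the other cells of their class, as a description, since Ppy chose them. In Delta_cells this mostly set cluster 8 beside cluster 6: 87 and 105 of the 118 and 120 Ppy-rich cells were of cluster 8, and 157 and 180 of the others of cluster 6. There the genes with the highest ratios after Ppy included Pyy, Ell2, Ugt2b34, Limch1, Cd9, Hspb8 and Foxp2. In Alpha_cells they were Tspan8, Pyy, Folr1, Cpb2, Serpina1a, Lbp, Tmcc3, Ccn1 and Snhg18, ranked by the mean over both libraries. The place of Ccn1 rests on the vehicle library, at 32.8 against 3.98 CPM, since the FAKi library had 11.05 against 10.97. Tspan8 measured 343 and 176 CPM in Ppy-rich α-cells against 30.3 and 16.04 in the others, and Folr1, a folate receptor, 177 and 175 against 47.0 and 36.4. Pyy was on both lists, at 127546 and 166153 CPM against 14748 and 12299 in Delta_cells.

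Of the 5 receptors of these peptides listed, Npy1r was the only one among the counted genes used here. It had 143 UMIs in all, of which Pericytes, the contractile cells around capillaries, held 100 with vehicle and 19 with FAKi (130 and 76.5 CPM). Delta_cells had no Npy1r UMI, which allows up to 0.643 and 0.542 CPM, and Alpha_cells and Beta_cells had at most 3 in a library.

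Few genes that process the precursors passed the 1.5-fold line. Of 7 listed (Pcsk1, Pcsk2, Cpe, Pam, Dpp4, Scg5 and Pcsk1n), 1 passed it in Delta_cells, Pcsk1 at 50.8 and 33.6 CPM (0.661 times, 0.543 to 0.805), and the median ratio over the list was 0.915. Over all genes of that class 2.54% were lower and 1.33% higher past the line. None of the 6 counted well enough in Alpha_cells passed it (median 0.955), nor any of 7 in Beta_cells (median 0.987). Of the lineage genes listed, 1 of 11 passed it in Alpha_cells, Tspan8 at 136 and 44.9 CPM (0.331 times, 0.284 to 0.384), the same direction as Ppy and Pyy in that class, where 1.59% of all genes were lower and 3.17% higher. In Beta_cells 0 of 9 did, where 3.1% of all genes were lower and 1.21% higher.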

How the data were processed

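Droplet-based 3′ single-cell RNA sequencing was done on islet cells of 1 vehicle and 1 FAKi library. The authors counted UMIs with Cell Ranger on mm10, aggregated the libraries, kept cells under 8% of mitochondrial counts with Seurat 3.1, normalized with SCRAN, integrated with scanorama and clustered by the Louvain method. The deposited counts used here are raw, without normalization. The deposited percent of mitochondrial counts per cell and the deposited clusters and class labels were used as given. The labels give 8832 and 8437 cells used for sequencing, and 3776 and 3183 barcodes were in the table. Dates had replaced 23 gene names, none of them a member. No column of per-sample values was left unmapped.

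CPM were formed from UMIs summed per class or cluster within a library, over that group's total. Levels carry exact Poisson, shares Clopper-Pearson and ratios exact conditional binomial 95% intervals, which cover counting error only; a count of 0 allows 3 counts. With 1 library per treatment nothing was tested across samples. Rich cells had at least 1% of UMIs on a gene. Shares were also taken after thinning to 1000 or 10000 UMIs. Doublets were called with scrublet in each library (68 and 57 cells) and kept. Named genes were the members, Sst, Gcg, Ins2 and Ins1, the receptor, processing and lineage lists, the 5 genes most correlated with each member, and the 10 with the highest mean log2 ratio (pseudocount 1 CPM) in Ppy-rich cells that were higher in both libraries. Cluster markers and the comparison of Npy-high cells were read beside these. The members, lists and alternatives were chosen with earlier results of these data known. Alternatives were mean cell CPM, other totals, doublets or shallow cells or cells with more mitochondrial counts left out, thinning, top cells left out, single clusters, other lines for rich cells, Spearman correlation and other minimum counts and pseudocounts. Leaving out the 10 highest cells, and clusters 1, 5, 6 and 10 taken alone, were chosen after seeing the data. The ratio intervals were checked on simulated Poisson counts, which is the model they assume. Spread between cells was not simulated, so the check does not cover it. Positions and transcripts came from GENCODE on GRCm38 and promoters from RefSeq. Tools were Python 3.11.15, numpy 2.4.6, pandas 2.3.3, scipy 1.17.1, scanpy 1.11.5 and matplotlib 3.10.9. Protein sequences were not used here. A few genes that the rules for named genes chose are not reported here.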

Additional observations from a re-analysis of the deposited data

Results flagged for a closer look

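With 1 library per treatment no difference between effects was tested. Clusters with intervals on opposite sides of an equal level were looked at more closely. Pyy was 1.22 times the vehicle level in cluster 8 (1.21 to 1.22), but 0.402 times in cluster 5 (0.399 to 0.406), 0.549 times in cluster 9 (0.541 to 0.557) and 0.770 times in cluster 6 (0.759 to 0.781). Npy was 2.04 times the vehicle level in cluster 1 (1.80 to 2.32) and 1.28 times in cluster 10 (1.01 to 1.62), but 0.937 times in cluster 0 (0.883 to 0.995). The directions of Npy depended on the measure. As means over cells cluster 0 had 74.1 CPM with vehicle and 77.2 with FAKi and cluster 10 had 72.6 and 37.3, both turned, while cluster 1 had 41.2 and 117. In cluster 10, 1 vehicle cell held 45.6% of the Npy UMIs. The intervals cover counting error only, and the differences between the clusters were not tested.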

How the results depend on the processing

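Of 144 recomputed values, 66 were counted as the same as the main value and 78 as moved. For levels, shares and ratios not past the fold line, moved meant outside the counting interval of the main value. A small shift could therefore count as moved. For ratios past that line, same meant only that they stayed past it on the same side. For counts of genes or cells, same meant within that fold. The cause of a move was not tested unless the alternative's own construction shows it. In Alpha_cells, Ppy stayed between 0.328 and 0.399 times and Pyy between 0.402 and 0.549 times the vehicle level under all 11 alternatives run. Means over cells lowered the levels in Delta_cells to 84783 and 89678 CPM of Ppy (vehicle, then FAKi) and 46419 and 57059 of Pyy, and thinning to 88514 and 91968 of Ppy and 47473 and 59044 of Pyy, since shallow cells then weigh as much as deep ones. Without called doublets these were 145666, 143471, 71952 and 87843, with at least 1000 detected genes 145866, 142294, 71856 and 87100, and without the top cell 141925, 139085, 69550 and 84833. Npy in vehicle Beta_cells was 64.6 CPM as a mean over cells, 65.9 thinned and 72.9 without the top cell.

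The ratio in Delta_cells crossed 1 for Ppy with means over cells (1.06), thinning (1.04) and without the 10 top cells (1.04). It was 0.993 without the 20 most abundant genes in the total, 0.987 without hormones in it, 0.985 without doublets, 0.944 under 5% mitochondrial counts, 0.980 without the top cell, 0.948 in cluster 8 and 0.260 in cluster 6. For Pyy the same settings gave 1.23, 1.24, 1.32, 1.23, 1.22, 1.22, 1.15, 1.22, 1.22 and 0.770. Npy in Beta_cells was 1.40 times the vehicle level as means over cells, 1.36 thinned, 1.16 without the top cell, 1.33 without the 10 top cells, 0.937 in cluster 0, 2.04 in cluster 1 and 1.28 in cluster 10.

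At 5% of UMIs, 138 and 141 cells were Ppy-rich and 138 and 135 Pyy-rich. The share of Ppy-rich cells rich in Sst was then 2.90% and 1.42%, in Gcg 21.0% and 19.1% and in Ins2 10.1% and 2.84%. At 0.5% it was 20.7% for Sst and 44.6% for Gcg in the FAKi library and 30.4% and 36.9% for Ins2 in the vehicle and FAKi libraries. With 1 UMI of both genes it was 48.2% and 70.8% for Sst, 85.9% and 98.6% for Gcg and 100% in both for Ins2, and free RNA is counted there. Of the 5 genes most like a member, Spearman correlation kept 3 for Ppy, 2 for Pyy and 1 for Npy, a pseudocount of 10 CPM kept 2, 2 and 3, and a minimum of 20 UMIs kept 3 for Ppy. Of the listed genes in Beta_cells, 1 in place of 0 passed 1.5-fold as a mean over cells.

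No paired analysis was possible because the lane numbers that the labels share between the treatments are not in the files, and lanes of 1 library are not replicates.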
